A study of Homo sapiens with 4 samples.

Results

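The DNA repair and topoisomerase genes are the probes whose printed gene name matches a fixed pattern of repair and topology symbols, such as RAD followed by a digit, XRCC, ERCC, MSH, FANC, POL, LIG and TOP. The rule used names only and no measured value. It found 65 gene names of 1765, measured by 67 of the 1856 gene probes of the array, with 136 of the 3786 gene spots, because WRN was printed in 4 spots and each of the others in 2. BRCA1 and LIG3 had a pair of probes each. Of the 67 probes, 66 were matched by accession to a RefSeq gene of GRCh38.p14 and 1 by symbol, and 3 carry an older name, among them MRE11A, now MRE11, and NBS1, now NBN.

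Gene expression was measured in SW480, an established line from a colon adenocarcinoma. The BM group was treated for 10 h with 15% (v/v) postbiotic of Bacillus mojavensis, a preparation from a culture grown in MRS medium, and the MRS group with 15% (v/v) MRS medium alone for the same time. Both groups were grown in DMEM F12 with 10% fetal bovine serum, and each held 2 samples that the submitters describe as independently grown and harvested. Array 1 carried BM replicate 1 and MRS replicate 1 and array 2 carried BM replicate 2 and MRS replicate 2. These numbers follow the sample titles, while the submitters' column headers number the same replicates 2 and 3. BM was in Alexa Fluor 647 and MRS in Alexa Fluor 555 on both arrays, so that a dye effect on a gene and the treatment cannot be told apart. The design covers 1 cell line, and RNA was pooled over each culture, so that fewer cells with a transcript and less transcript per cell cannot be told apart. Ratios below are log2(BM/MRS) after normexp background correction and loess. Levels are log2 intensities of a probe, normalized within each array and not between arrays. They are comparable between the BM and MRS sample of one array, and not between arrays or between probes.

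Cells meet DNA damage with several repair systems. Glycosylases and the base excision enzymes remove small lesions, nucleotide excision repair cuts out bulky adducts, mismatch repair corrects replication errors, and breaks through both strands are mended by end joining or by homologous recombination. Kinases such as ATM report the damage to the cell cycle. Topoisomerases cut and reseal DNA to release the twist that replication and transcription build up, and irinotecan, a colon cancer drug, acts through TOP1. In colon carcinoma, loss of mismatch repair defines the microsatellite-unstable tumours, and SW480 is a microsatellite-stable line.

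No change of a repair or topoisomerase gene was detectable. In limma, 0 of the 67 members had an adjusted p under 0.05, against 0.00% of all 1856 probes, and the smallest adjusted p of a member was 0.779. At an unadjusted p under 0.05, 0 of the 67 members passed, against 6.57% of all probes. The mean ratios of the members lay between 0.868-fold for RAD1 and 1.11-fold for ERCC4, and 63 of the 67 lay within 1.1-fold, against 89.1% of all probes. The others were RAD1, XPA, PMS2 and ERCC4. The 95% interval held no change for all 67 members and lay within 1.5-fold of it for all 67, against 99.7% of all probes. Over the members the lowest lower bound was 0.7005-fold, for RAD1, and the highest upper bound 1.32-fold, for MSH3. These intervals rest largely on a spread pooled over all probes.

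All 67 members stood above 1.5 times local background in at least 1 channel on both arrays, against 99.4% of all probes. The mean ratio was above 0 for 36 of the 67, against 47.1% of all probes. Both arrays put 9 of the 67 members higher in BM (13.4%), against 24.6% of all probes, and 17 lower (25.4%), against 28.4%. The other 41 (61.2%) had opposite signs on the arrays, against 46.9% of all probes. The median of the members' mean ratios was 0.0096, against -0.0057 over all probes, and it was 0.0015 on array 1 and -0.0097 on array 2. Across the 67 members, which share their 2 arrays and dyes, the ratios of the arrays correlated at -0.18 (Pearson) and -0.16 (Spearman), against 0.11 and 0.083 across all 1856 probes. Within an array, the spots of a member differed by a median of 0.023 on array 1 and 0.036 on array 2, while the ratios of a member on the 2 arrays differed by a median of 0.11. Over all probes these medians were 0.026, 0.034 and 0.090.

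**Figure D1:**
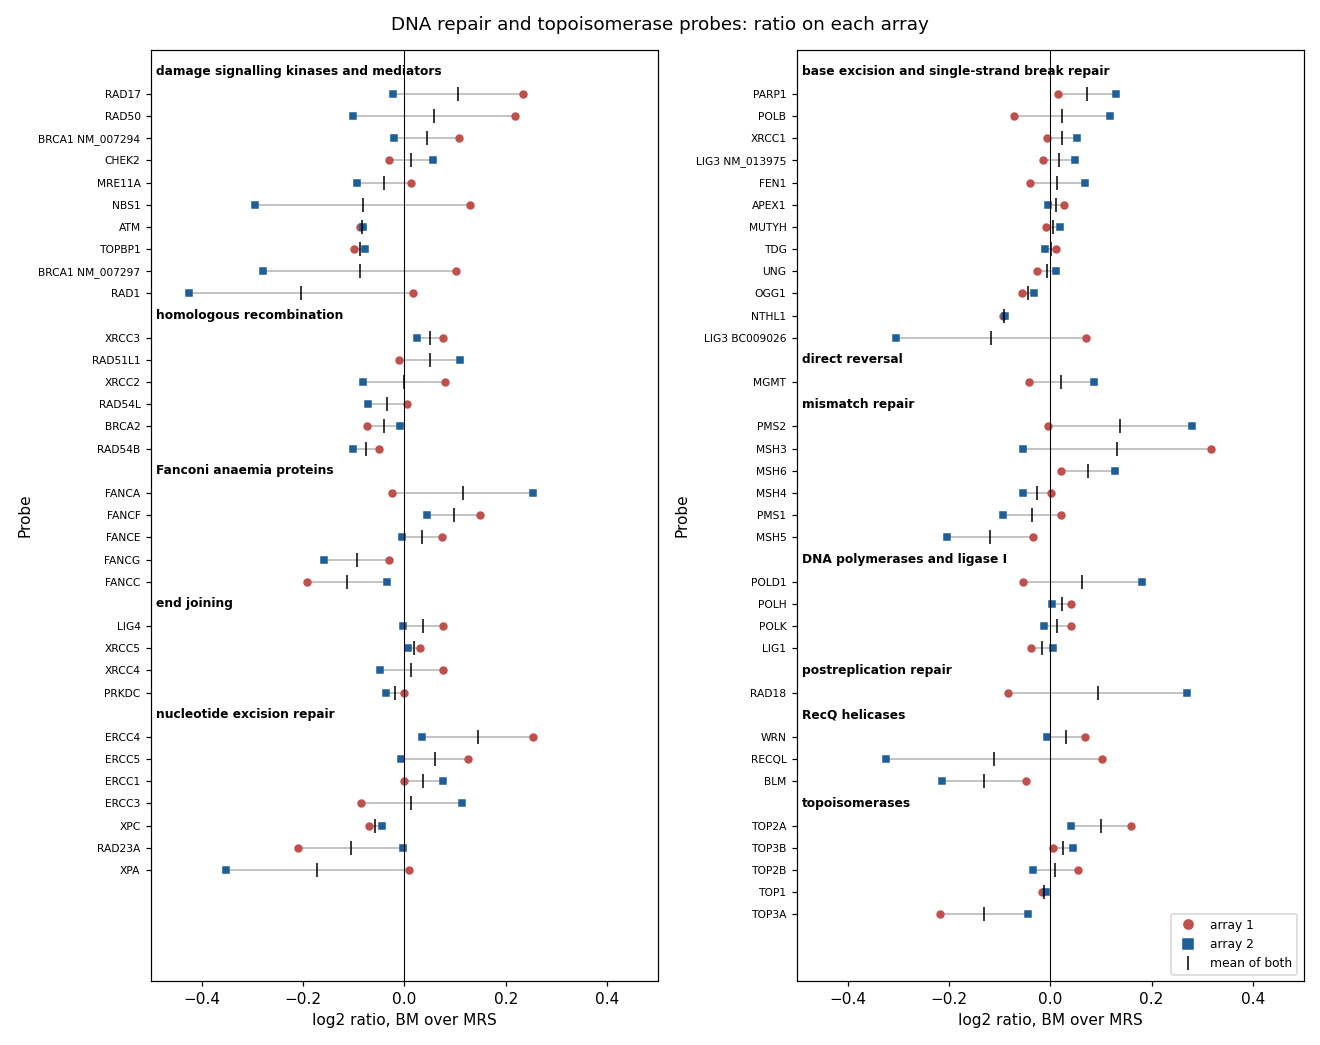
Log2 ratio of BM over MRS (horizontal axis) for 64 of the 67 probes (vertical axis), grouped by the role of the gene. Circles are array 1, squares array 2 and ticks their mean; 40 of the 64 probes have the arrays on opposite sides of 0.

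**Figure D2:**
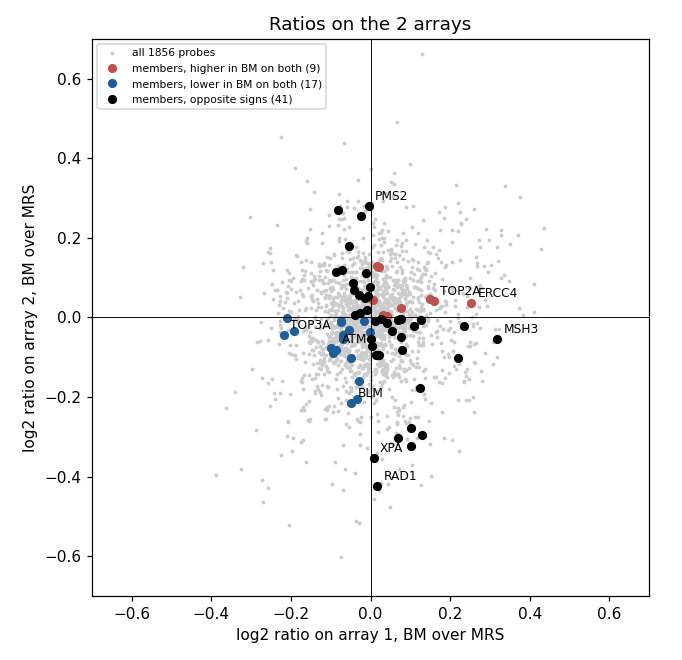
Log2 ratio of BM over MRS on array 1 (horizontal axis) against array 2 (vertical axis) for all 1856 probes in grey and the 67 members in colour by their signs. The 9 members higher on both arrays lie at the upper right and the 17 lower on both at the lower left, and the 41 of opposite signs lie in the other corners.

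The topoisomerases gave values on both sides of no change. TOP2A and ATM, the kinase that answers breaks, are the markers given for these genes. The 250 bases before their annotated RefSeq starts (GRCh38.p14) are shown because the ratios of TOP2A and ATM stood on opposite sides on both arrays. Neither ratio passed the test (adjusted p = 0.779 each, limma), and a link between sequence and ratio was not tested. TOP2A lies at chr17:40417897-40418146 on the minus strand and ATM at chr11:108222817-108223066 on the plus strand. Capitals mark the letters of the CCAAT box, of the GC-rich element GGGCGG and of the core promoter element TATAAA. Each was searched on both strands and anywhere in the 250 bases, so a match need not be a working element. No marked stretches overlap.

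TOP2A: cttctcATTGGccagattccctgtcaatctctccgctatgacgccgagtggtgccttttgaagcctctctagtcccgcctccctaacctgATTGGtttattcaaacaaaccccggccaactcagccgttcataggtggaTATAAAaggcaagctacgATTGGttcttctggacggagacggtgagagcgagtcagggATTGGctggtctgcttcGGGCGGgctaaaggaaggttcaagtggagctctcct
ATM: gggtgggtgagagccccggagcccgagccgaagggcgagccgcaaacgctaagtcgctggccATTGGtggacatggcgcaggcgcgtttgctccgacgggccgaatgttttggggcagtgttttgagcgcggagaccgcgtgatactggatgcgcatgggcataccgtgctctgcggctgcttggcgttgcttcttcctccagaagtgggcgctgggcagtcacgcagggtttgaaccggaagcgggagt

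The TOP2A window holds 4 matches to CCAAT, all as the reverse complement, 1 to GGGCGG and 1 to TATAAA, and the ATM window holds 1 match to CCAAT. Promoter windows were matched for 55 member genes. On either strand CCAAT was found in 36.4% of these 55, against 33.0% of all 27305 promoter windows of the table, GGGCGG in 70.9% against 42.3%, and TATAAA in 1.82% against 11.1%. TOP2A was the 1 member with TATAAA. These matches describe the sequence and show no binding.

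TOP2A, the topoisomerase II of dividing cells and the target of etoposide and doxorubicin, had 10.90 and 10.68 in the BM samples, against 10.74 and 10.64 in the MRS samples. The BM sample was the higher on both arrays, by 0.16 and 0.042, while the groups overlapped. Its mean ratio was 0.10 ± 0.084 (SD, n = 2; adjusted p = 0.779, limma), and it stood at 0.033 with the series matrix values and 0.043 with print-tip loess. TOP3A, a type I enzyme that unlinks recombination intermediates together with BLM, had 13.17 and 13.24 in the BM samples, against 13.39 and 13.28 in the MRS samples. Both BM samples lay below both MRS samples, and the mean ratio was -0.13 ± 0.12 (SD, n = 2; adjusted p = 0.779, limma), or -0.037 with median centring in place of loess. MSH5 was the other member whose BM samples both lay below the MRS samples, which makes 2 of 67 against 3.50% of all probes. Both BM samples lay above for 0 of 67, against 2.96% of all probes. These counts compare levels across arrays that were not normalized to each other.

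The remaining topoisomerases were closer to no change. TOP1, the target of irinotecan, had 11.86 and 11.71 in the BM samples, against 11.88 and 11.72 in the MRS samples, a mean ratio of -0.013 ± 0.0058 (SD, n = 2) with a 95% interval from 0.900-fold to 1.09-fold. TOP2B, the other topoisomerase II, had 10.62 and 11.98 in the BM samples, against 10.57 and 12.01 in the MRS samples. TOP3B, a topoisomerase that also acts on RNA, had 10.75 and 11.65 in the BM samples, against 10.75 and 11.60 in the MRS samples. In these 3 genes the arrays differed more than the groups, and the sign of the mean ratio turned with the series matrix values and with print-tip loess, and for TOP2B and TOP3B also with median centring.

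**Figure D3:**
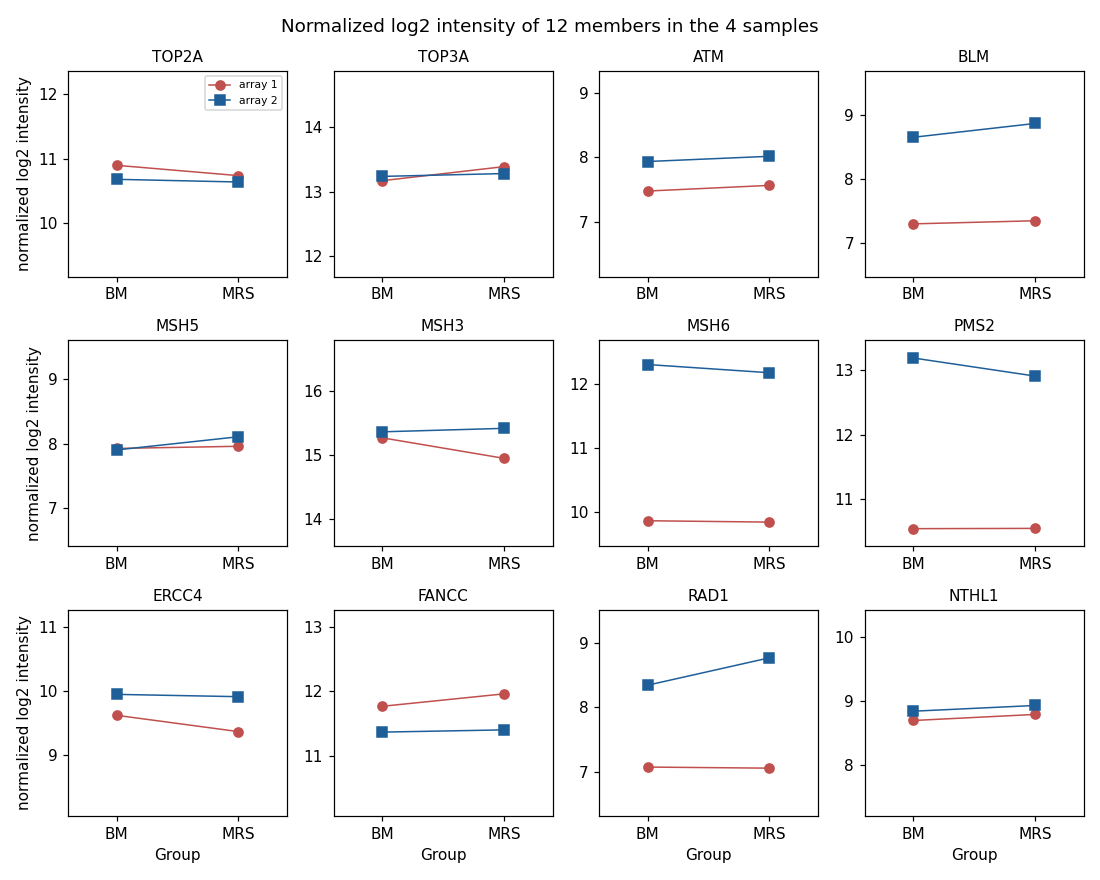
Log2 intensity (vertical axis, with the same span of 3.2 in every panel) of 12 members in the BM and MRS samples. Intensities were normalized within each array and not between arrays, and a line joins the BM and MRS sample of one array. In PMS2 and MSH6 the arrays lie 2.51 and 2.38 apart, far more than the BM and MRS samples of an array, while in TOP3A and MSH5 both BM samples lie below both MRS samples.

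Of the 10 probes for damage signalling, 8 had opposite signs on the arrays, 2 were lower in BM on both and 0 were higher. Over all probes the shares were 46.9%, 28.4% and 24.6%, and the sign counts of the small groups below are to be read against them. The lower ones were ATM and TOPBP1, an activator of the kinase ATR. ATM had 7.48 and 7.94 in the BM samples, against 7.56 and 8.02 in the MRS samples, so the difference was nearly equal on the arrays, at -0.088 and -0.081, while the groups overlapped. Its mean ratio was -0.084 ± 0.0048 (SD, n = 2; adjusted p = 0.779, limma), or -0.13 with plain background subtraction and -0.051 with print-tip loess. TOPBP1 had 7.52 and 8.18 in the BM samples, against 7.62 and 8.26 in the MRS samples, and a mean ratio of -0.088 ± 0.015 (SD, n = 2), or -0.029 with the series matrix values. Both were dim, with a lowest raw intensity over local background of 2.25 for ATM and 2.35 for TOPBP1, against a median of 13.7 over the 67 members.

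RAD1, a subunit of the checkpoint clamp that is loaded at damaged DNA, showed how far the arrays could part. It had 7.07 and 8.34 in the BM samples, against 7.05 and 8.77 in the MRS samples, that is 0.017 on array 1 and -0.42 on array 2. Its mean ratio was -0.20 ± 0.31 (SD, n = 2; adjusted p = 0.779, limma). In the authors' deposited table, which averages linear intensities over the replicates before it compares the groups, both RAD1 spots had z ratios under -2, at -3.20 and -3.15. RAD1 was the 1 member of the authors' deposited table whose spots all passed a size of 2, a threshold chosen here, or 1.49% of the members against 3.18% of all probes.

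NBS1, which with MRE11A and RAD50 forms the complex that senses broken ends, had 0.13 on array 1 and -0.29 on array 2, a mean of -0.082 ± 0.30 (SD, n = 2). The probes of BRCA1, a tumour suppressor that directs breaks to recombination, are named for different transcript variants. The probe for NM_007294 had a mean ratio of 0.044 ± 0.091 and that for NM_007297 of -0.089 ± 0.27 (SD, n = 2 each). Both probes were positive on array 1, at 0.11 and 0.10, and negative on array 2, at -0.021 and -0.28, so that their means differed in sign through the size of the array 2 ratio.

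Of the 7 homologous recombination probes, 1 was higher in BM on both arrays and 3 were lower. BRCA2, a tumour suppressor that loads the recombinase onto broken ends, was among the lower ones, with a mean ratio of -0.041 ± 0.046 (SD, n = 2). RAD54B, a motor protein that aids strand exchange, had -0.050 and -0.10, a mean of -0.076 ± 0.036 (SD, n = 2), and stood at -0.16 with the series matrix values. XRCC3, which aids the assembly of the recombinase filament, had 0.050 ± 0.037 (SD, n = 2), which turned to -0.0070 with the series matrix values and -0.031 with print-tip loess.

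The Fanconi proteins, which repair crosslinks between strands, had 1 of 5 probes higher on both arrays and 2 lower. FANCF, an adaptor of the core complex, had 14.17 and 14.88 in the BM samples, against 14.03 and 14.83 in the MRS samples, with a mean ratio of 0.097 ± 0.073 (SD, n = 2; adjusted p = 0.779, limma). With median centring it stood at 0.37 and passed (adjusted p = 0.0485, limma), as the 1 member that did. FANCC, another core subunit, had 11.77 and 11.37 in the BM samples, against 11.96 and 11.40 in the MRS samples, with a mean ratio of -0.11 ± 0.11 (SD, n = 2; adjusted p = 0.779, limma). The BM sample was the lower on both arrays, and the groups overlapped because the arrays differed by more than the groups did.

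The 4 end joining genes, which rejoin broken ends directly, had mean ratios from -0.019 to 0.037. PRKDC, the catalytic kinase of the pathway, had -0.019 ± 0.026, XRCC5, the Ku80 subunit that holds broken ends, 0.019 ± 0.017, XRCC4, the scaffold of ligation, 0.014 ± 0.087 and LIG4, the ligase itself, 0.037 ± 0.057 (SD, n = 2 each). The widest 95% interval of the 4 ran from 0.904-fold to 1.13-fold, for XRCC4. XRCC6, the Ku70 partner of XRCC5, is printed as G22P1 and so falls outside the name rule. Chosen after its values were seen, it had 0.0068 on array 1 and 0.24 on array 2, a mean of 0.12 ± 0.16 (SD, n = 2; adjusted p = 0.779, limma), above the range of the 4.

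In nucleotide excision repair, 1 of 7 probes was higher on both arrays and 2 were lower. ERCC4, the XPF subunit of the nuclease that cuts beside the lesion, had 9.62 and 9.94 in the BM samples, against 9.37 and 9.91 in the MRS samples. The BM sample was the higher on both arrays, by 0.25 and 0.036, and the mean ratio of 0.14 ± 0.15 (SD, n = 2; adjusted p = 0.779, limma) was the highest among the members. XPA, which verifies the lesion, had 10.60 and 11.28 in the BM samples, against 10.59 and 11.63 in the MRS samples, so that its mean ratio of -0.17 ± 0.26 (SD, n = 2) came from array 2. XPC, a damage sensor, had -0.057 ± 0.019 (SD, n = 2), and 0.0028 with the series matrix values.

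Base excision and repair of breaks in one strand was the largest group, with 12 probes, of which 1 was higher on both arrays and 2 were lower. NTHL1, a glycosylase for oxidized pyrimidines, had 8.70 and 8.84 in the BM samples, against 8.79 and 8.93 in the MRS samples. The difference was -0.094 and -0.089, and the mean of -0.091 ± 0.0037 (SD, n = 2; adjusted p = 0.779, limma) had the smallest SD among the 67 members. OGG1, the glycosylase for 8-oxoguanine, had -0.044 ± 0.016 (SD, n = 2), but 0.098 with median centring. PARP1, which marks broken strands with poly(ADP-ribose), had 7.45 and 8.11 in the BM samples, against 7.44 and 7.98 in the MRS samples, a mean ratio of 0.072 ± 0.081 (SD, n = 2), or 0.14 with the series matrix values, and was dim, at a lowest raw intensity of 2.26 times background. UNG, which removes uracil, and APEX1, which cuts at the emptied site, had -0.0073 ± 0.027 and 0.011 ± 0.022 (SD, n = 2 each). XRCC1, the scaffold of this pathway, was the dimmest member, with a lowest raw intensity of 1.47 times background, and the other 66 stayed above 1.5 times in all 4 samples.

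The LIG3 probes, for the ligase that works with XRCC1, disagreed. The probe for BC009026 had 10.20 and 10.68 in the BM samples, against 10.13 and 10.98 in the MRS samples, a mean ratio of -0.12 ± 0.26 (SD, n = 2). The probe for NM_013975 had 13.50 and 13.62 in the BM samples, against 13.51 and 13.57 in the MRS samples, a mean ratio of 0.017 ± 0.044 (SD, n = 2). They differed in sign on each array. MGMT, which reverses alkylation of guanine directly and is often silenced in colon tumours, had -0.043 and 0.086, a mean of 0.021 ± 0.091 (SD, n = 2), and turned negative with print-tip loess, median centring and the series matrix values.

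Mismatch repair had 8 probes, 1 higher on both arrays and 2 lower. PMS2, a subunit of the main endonuclease complex, had 10.54 and 13.19 in the BM samples, against 10.54 and 12.91 in the MRS samples, and MSH6, a subunit of the main mismatch sensor, had 9.87 and 12.30, against 9.85 and 12.17. Both groups were brighter on array 2, by 2.51 for PMS2 and 2.38 for MSH6, larger gaps than 98.4% and 98.2% of all probes had. Array 2 was brighter by over 1 for 10 of the 67 members (14.9%), against 13.4% of all probes, and array 1 for 0, against 3.18%. The mean ratios were 0.14 ± 0.20 for PMS2, all of it from array 2, and 0.074 ± 0.075 for MSH6 (SD, n = 2 each).

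MSH3, a subunit of the sensor for larger loops, had 15.27 and 15.36 in the BM samples, against 14.95 and 15.42 in the MRS samples, a mean of 0.13 ± 0.26 (SD, n = 2; adjusted p = 0.826, limma). MSH5, which acts in meiosis with MSH4, had 7.93 and 7.90 in the BM samples, against 7.96 and 8.11 in the MRS samples, a mean of -0.12 ± 0.12 (SD, n = 2; adjusted p = 0.779, limma). MSH4 had -0.027 ± 0.040 (SD, n = 2), and its raw intensity was at least 42.4 times background in all 4 samples, so a bright spot did not single out genes known for use outside meiosis.

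The RecQ helicases unwind stalled forks and recombination intermediates. BLM had 7.30 and 8.65 in the BM samples, against 7.35 and 8.87 in the MRS samples, lower on both arrays, with a mean of -0.13 ± 0.12 (SD, n = 2; adjusted p = 0.779, limma). RECQL had 0.10 on array 1 and -0.32 on array 2, a mean of -0.11 ± 0.30, and WRN 0.069 and -0.0059, a mean of 0.031 ± 0.053 (SD, n = 2 each). RAD18, the ligase that marks the replication clamp for damage bypass, had -0.083 and 0.27, a mean of 0.093 ± 0.25 (SD, n = 2). Of the 4 polymerase and ligase I probes, POLH, a bypass polymerase, had 0.023 ± 0.026 (SD, n = 2) and the others had opposite signs on the arrays.

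**Figure D4:**
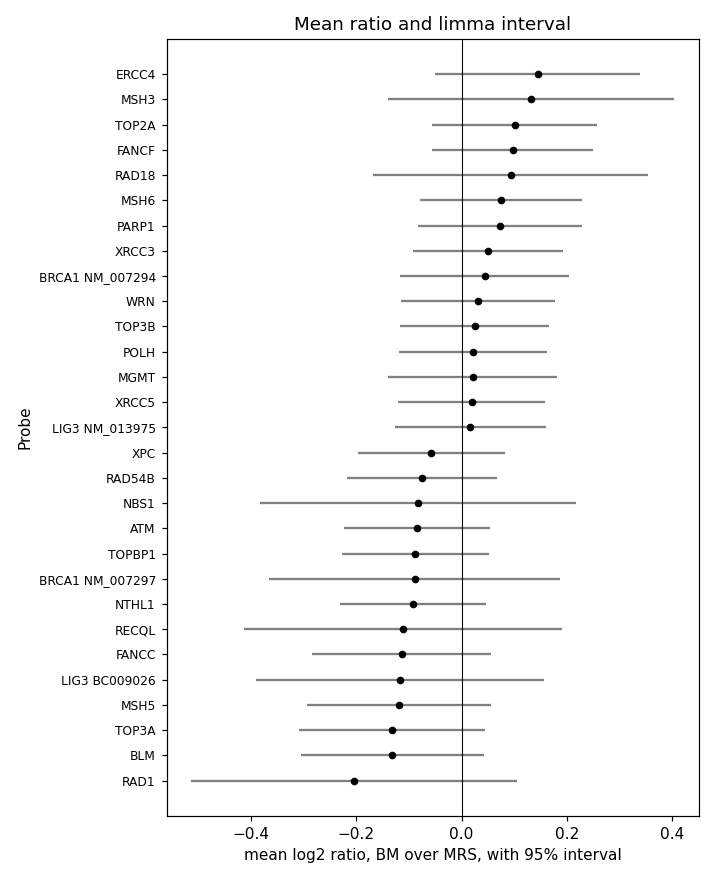
Mean log2 ratio of BM over MRS (points) with the 95% interval from limma (lines) for 29 of the probes that the naming rule took (vertical axis). Each of the 29 lines crosses 0, and the widest belongs to RAD1.

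Bright members stood higher where loess was left out. With median centring alone, MSH3 stood at 0.54, FANCF at 0.37 and XRCC3 at 0.34, and 34 of all 1856 probes passed (33 higher and 1 lower in BM), FANCF being the 1 member among them. MSH3, FANCF and XRCC3 are among the brightest members, with a lowest raw intensity over background of 413.3, 238.5 and 279.0. With the same dyes on both arrays, a dye effect in them and the treatment cannot be told apart.

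**Figure D5:**
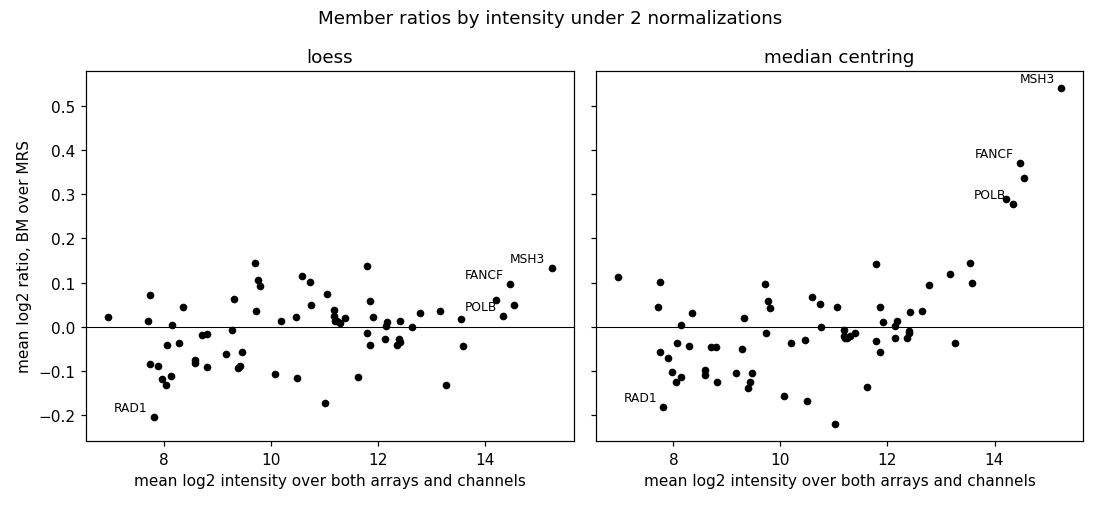
Mean log2 ratio of BM over MRS (vertical axis) against mean log2 intensity (horizontal axis) of the 67 members with loess (left) and with median centring (right). The bright members MSH3, XRCC3, FANCF, POLB and ERCC5 lie between 0.28 and 0.54 with median centring and between 0.023 and 0.13 with loess, while with print-tip loess XRCC3, POLB and ERCC5 lie below 0.

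Genes around these pathways were taken from lists of other repair and replication factors and of damage checkpoint genes. Of 12 probes for other factors, 4 were higher on both arrays (24.6% of all probes), 2 lower (28.4% of all probes), 2 had an unadjusted p under 0.05 (6.57% of all probes) and 0 passed (smallest adjusted p = 0.571, limma). DUT, which removes dUTP, had 0.26 and 0.27, DDB2, a sensor of ultraviolet lesions, 0.19 and 0.28, DNTT, a polymerase of lymphocyte precursors, 0.15 and 0.080, and BARD1, the partner of BRCA1, -0.092 and -0.11. Of 13 damage checkpoint probes, 3 were higher on both arrays, 4 lower, 2 had an unadjusted p under 0.05, to be read against the same shares of all probes, and 0 passed (smallest adjusted p = 0.594, limma). MDM2, a ubiquitin ligase, had -0.15 and -0.26, the phosphatase gene PPM1D 0.083 and 0.15 and the death effector BAX -0.068 and -0.087. The median mean ratio was -0.00078 for the other factors and 0.018 for the checkpoint list, against -0.0057 over all probes.

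Among markers of cell types, all 6 colon epithelial probes measured stood at least 8.76 times above background, and the 6 leukocyte probes at least 5.84 times and the 6 fibroblast probes at least 2.45 times, so signal above background did not separate cell types. The median raw intensity of the gene spots was 1655 and 1895 in the BM samples, against 1985 and 2186 in the MRS samples.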

How the data were processed

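The deposited spot tables hold, per the file headers, the mean raw intensity, local background and net intensity of both channels. The series matrix repeats these net values on a linear scale. In the MRS channel they equal raw minus background. In the BM channel they were scaled further, as their medians of 1886 and 2100 exceed the raw medians of 1655 and 1895. The MRS medians, 1881 and 2082, are close to the BM medians of the same array. The direction, BM over MRS, follows the sample titles and source names, although the treatment field gives MRS medium for all 4 samples. R 4.2.2 is named in the submitters' processing notes. For the image software, a name was not given in the sources used here. The authors' deposited table holds a z ratio, a score of the difference between the groups, and a fold change.

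Raw intensities were corrected with normexp (offset 50) and loess in limma 3.58.1 (R 4.3.3), with 54 control spots at weight 0. Spots of an accession were averaged. Limma fitted an intercept to the 2 ratios of all 1856 probes (two-sided, Benjamini-Hochberg, threshold 0.05). The steps were tested on simulated data with planted changes larger than any member's mean ratio. That test does not show how well smaller changes would be found. The number of arrays limits the precision.

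Ratios within an array hold the replicate number as a block. The pairing comes from the labels. Over probes, deviations of same-numbered samples correlated at 0.980, but an array's channels share their printed spots.

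Members and lists were chosen with earlier results of these data known. The naming rule took ATM and TOP2A, members of one sign on both arrays in order of their smaller ratio (up to 10 each way), 6 of opposite signs, genes with several probes and small role groups, 30 probes in all; 17 more, among them TOP1, TOP2B, PMS2 and XPA, were added after their values were seen. Some of these genes are not reported here by name. Alternatives were another loess, median centring, plain subtraction, the series matrix values, dim probes left out, each array left out and no block.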

Additional observations from a re-analysis of the deposited data

How the results depend on the processing

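The count of members past the test stayed at 0 with print-tip loess, plain background subtraction and the series matrix values, and over all probes it was 0 there too. Leaving out dim probes also gave 0 and 0, but removed no member. So did no replicate block (limma on single channels, which ignores the array). There 0 of 1856 probes had even an unadjusted p under 0.05, so these 2 settings say little about the members. With median centring the count was 1 member (FANCF, 0.37) and 34 probes. The members' median of 0.0096 turned to -0.017 with print-tip loess, -0.015 with median centring and -0.011 with the series matrix values, and ran from -0.0097 to 0.0015 without 1 array at a time. A paired analysis is the main one; with no replicate block the values are equal by construction and the smallest adjusted p of a member was 1. With 1 array left there is 1 ratio per probe, no test, and no count of shared signs. Of the 67 members, 45 kept their sign in every setting that keeps both arrays and 22 did not. The same count was not made over all probes, so it is no trait of these genes. Among the members named, these turned. With print-tip loess TOP2B stood at -0.050, MGMT at -0.0078, MSH4 at 0.016, TOP1 at 0.022, TOP3B at -0.00092, XRCC3 at -0.031, POLH at -0.015, LIG3 NM_013975 at -0.017, XRCC5 at -0.017, POLB at -0.081 and ERCC5 at -0.014. With median centring TOP2B stood at -0.020, MGMT at -0.029, TOP3B at -0.020, OGG1 at 0.098, XRCC5 at -0.014 and XRCC4 at -0.026. With the series matrix values TOP2B stood at -0.052, MGMT at -0.0100, MSH4 at 0.013, TOP1 at 0.032, TOP3B at -0.0012, XPC at 0.0028, XRCC3 at -0.0070, POLH at -0.013, LIG3 NM_013975 at -0.016, XRCC5 at -0.011 and POLB at -0.056. The cause was not tested. Signal over background limits the dim members, with a lowest raw intensity under 2.5 times background: XRCC1, RAD1, BLM, MRE11A, FEN1, ATM, PARP1, TOPBP1 and MSH5.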
